A study of Mus musculus with 4 samples.

Results

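The genes described here encode the normal NUTM1 protein and the acetylation machinery around it. They are Nutm1, the acetyltransferase genes Ep300 (p300) and Crebbp (CBP), the BET reader genes Brd2 and Brd3, and Nsd3, Zmynd8 and Zfp532, whose products bind BET proteins or are known as NUTM1 fusion partners in human NUT carcinoma. These 8 genes were chosen by name, out of 21887 RefSeq protein-coding genes, and not by a measured value. Earlier results of these data were known when they were chosen. For each one, all called H3K27ac peaks were taken that reached the gene span extended by 10 kb on each side. Coordinates are those of mm10 (GRCm38).

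H3K27ac marks active promoters and enhancers, and p300 and CBP are the main enzymes that write it. BET proteins carry paired bromodomains that hold acetylated lysines, and they bring elongation factors to transcribed genes. NUTM1 is normally made in the testis, where it takes part in the hyperacetylation of histones before chromatin is compacted in sperm precursors. It binds p300 and raises its activity, and fusions join it to chromatin readers, so that acetylation is spread where the reader sits.

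The series compared bone marrow cells of C57BL/6 mice labelled cKit(+) BRD9-NUTM1, called BN1, with bone marrow cells labelled cKit(+), called control. BRD9 is a bromodomain protein of the non-canonical BAF remodeller. The design text speaks of leukaemic cells sorted by flow cytometry. The labels give CD45.2+ cells for both groups, name no further treatment, and do not give the age of the mice, how the fusion was introduced, or how many mice were used. There was 1 ChIP library per group, each as 1 peak list from fractionation-assisted native ChIP, and the 2 input libraries were not analysed here.

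With a single library per group, no value below has a replicate error and no test was possible. The list labelled BN1 (the BN1 list) held 19148 peaks over 19.1 Mb, and the list labelled control (the control list) held 28343 peaks over 31.0 Mb. Read depth is unknown. Peak names inside the BN1 list begin with BM and those inside the control list with BRNU, which reads the other way from the sample titles, and the extract protocol names BN1 cells for both. Groups follow the titles, so each direction holds for the labels only. Of the genes that define the sort, Kit had no peak within 10 kb in either list, and Ptprc, the CD45 gene, had 2958 bp in the BN1 list and 6634 bp in the control list.

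The lists also differed in markers of mature blood cells. Of 7 neutrophil genes, 7 had at least 2-fold more peak length per Mb in the BN1 list (1910 bp per Mb summed, against 99.3 in the control list). Of 7 B cell genes, 6 did so (1636 against 95.0 bp per Mb summed), and Cxcr2, Ngp, Ltf, S100a9, Cd79b, Pax5 and Ebf1 had no peak in the control list. The seventh B cell gene, Ms4a1, ran the other way, with no peak in the BN1 list and 650 bp in the control list. Of 6 macrophage genes, 6 had at least 2-fold more in the control list (131 bp per Mb in the BN1 list, against 1011 in the control list), and Adgre1, Cx3cr1 and Mertk had no peak in the BN1 list. The remaining lists held smaller sums. They were 380 against 185 bp per Mb for 6 erythroid genes, 258 against 223 for 5 T cell genes, and 208 against 183 for 5 progenitor genes, and of these Gata1, Cd3e, Cd8a, Kit and Gata2 had no peak in either list. The progenitor sum in BN1 came from Flt3 alone (208 bp per Mb in BN1, 43.2 in control), while Cd34 (51.6 bp per Mb) and Meis1 (88.2 bp per Mb) had peaks in control only. Among the T cell genes, Cd4 likewise had peaks in control only (104 bp per Mb). Cd3g ran the other way, with 178 bp per Mb in BN1 and 54.6 in control. Lck lay within 2-fold, at 80.3 bp per Mb in BN1 and 64.4 in control. The part of these differences in the results below was not tested. In such a bulk library, fewer cells with a mark and less of the mark in each cell cannot be told apart.

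Start sites are shown first, because the strongest peaks of several of these genes cover them. RefSeq promoter windows of GRCm38.p6, from 250 bases before to 50 after a start, were matched for 5 of the 8 genes, with 11 windows in all. Nutm1, Nsd3 and Zfp532 were not matched. Of the 11 starts, 8 lay under a peak in the BN1 list and 9 in the control list. Each sequence below reads 5′ to 3′ on the strand of the gene, with the annotated start right after the first 250 bases, and capitals mark matches on either strand to 1 of 9 short motifs. The windows of Ep300, Crebbp, Brd2 and Brd3 show the shared starts, the 3 of Zmynd8 show its outer and inner starts, covered in both lists, and its middle start, covered in control alone, and that of Nop10 shows the start beside the peak closest to Nutm1.

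Ep300, chr15:81585964-81586263, plus strand: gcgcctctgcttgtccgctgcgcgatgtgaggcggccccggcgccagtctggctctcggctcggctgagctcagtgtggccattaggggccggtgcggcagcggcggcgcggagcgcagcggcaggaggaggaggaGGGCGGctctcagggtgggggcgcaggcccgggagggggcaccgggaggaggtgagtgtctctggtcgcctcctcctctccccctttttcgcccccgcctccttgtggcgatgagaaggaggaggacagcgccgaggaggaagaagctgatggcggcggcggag
Crebbp, chr16:4213355-4213654, minus strand: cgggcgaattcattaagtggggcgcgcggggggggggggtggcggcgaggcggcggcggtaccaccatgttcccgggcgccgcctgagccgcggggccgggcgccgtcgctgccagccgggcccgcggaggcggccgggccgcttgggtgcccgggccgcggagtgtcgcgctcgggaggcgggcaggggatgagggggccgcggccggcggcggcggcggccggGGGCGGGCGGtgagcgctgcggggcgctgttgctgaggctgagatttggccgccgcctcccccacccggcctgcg
Brd2, chr17:34122558-34122857, minus strand: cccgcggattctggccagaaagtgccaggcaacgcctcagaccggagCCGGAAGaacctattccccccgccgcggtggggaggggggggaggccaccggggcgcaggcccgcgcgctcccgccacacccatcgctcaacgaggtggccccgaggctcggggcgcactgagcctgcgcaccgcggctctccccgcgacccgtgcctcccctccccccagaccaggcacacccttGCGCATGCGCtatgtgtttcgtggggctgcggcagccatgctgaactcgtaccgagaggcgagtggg
Brd3, chr2:27475349-27475648, minus strand: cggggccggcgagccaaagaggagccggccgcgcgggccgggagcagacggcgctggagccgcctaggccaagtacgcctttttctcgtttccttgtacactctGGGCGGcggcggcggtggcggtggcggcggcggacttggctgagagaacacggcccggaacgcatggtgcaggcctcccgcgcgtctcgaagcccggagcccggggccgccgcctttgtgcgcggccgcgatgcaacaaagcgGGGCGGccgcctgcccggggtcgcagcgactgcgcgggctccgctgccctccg
Zmynd8 outer start, chr2:165884789-165885088, minus strand: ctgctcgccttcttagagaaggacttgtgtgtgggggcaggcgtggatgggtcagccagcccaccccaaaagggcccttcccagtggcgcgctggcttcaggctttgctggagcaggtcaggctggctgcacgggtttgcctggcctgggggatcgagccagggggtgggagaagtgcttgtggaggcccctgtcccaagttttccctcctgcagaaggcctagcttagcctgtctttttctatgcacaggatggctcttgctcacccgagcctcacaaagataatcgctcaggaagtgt
Zmynd8 middle start, chr2:165882229-165882528, minus strand: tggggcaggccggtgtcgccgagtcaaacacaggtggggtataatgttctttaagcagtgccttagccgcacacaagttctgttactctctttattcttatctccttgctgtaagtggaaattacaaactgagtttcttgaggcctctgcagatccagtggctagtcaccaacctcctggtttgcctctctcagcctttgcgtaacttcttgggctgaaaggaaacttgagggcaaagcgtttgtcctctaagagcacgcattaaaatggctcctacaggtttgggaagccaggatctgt
Zmynd8 inner start, chr2:165858124-165858423, minus strand: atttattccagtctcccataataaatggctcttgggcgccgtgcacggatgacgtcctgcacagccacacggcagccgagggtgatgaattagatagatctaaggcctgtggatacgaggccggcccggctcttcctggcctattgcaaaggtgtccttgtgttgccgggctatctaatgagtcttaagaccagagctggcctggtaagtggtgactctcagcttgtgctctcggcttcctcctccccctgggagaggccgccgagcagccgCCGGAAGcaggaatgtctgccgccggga
Nop10, chr2:112261676-112261975, plus strand: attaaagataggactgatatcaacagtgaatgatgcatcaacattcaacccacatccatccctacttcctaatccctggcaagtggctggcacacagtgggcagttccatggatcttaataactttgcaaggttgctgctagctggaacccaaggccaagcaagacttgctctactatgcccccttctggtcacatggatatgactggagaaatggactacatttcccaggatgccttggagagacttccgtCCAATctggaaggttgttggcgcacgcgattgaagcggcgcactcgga

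The windows of the acetyltransferase and BET genes were rich in G and C. The printed Brd2 window had 72.3% G and C and 32 CpG dinucleotides, and its other windows had 66% and 14, and 58.7% and 24. The Crebbp window had 82% G and C and 49 CpG dinucleotides, the Brd3 window 75% and 46, and the Ep300 window 72.3% and 30, whereas the median of all 32851 windows in the table was 52.7% and 7. The Zmynd8 windows differed among themselves. The outer one had 8 CpG dinucleotides, the middle one 7 and the inner one 17, although the outer start lay under the strongest Zmynd8 peak in both lists.

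The motifs searched were GGGCGG (GC box), CCAAT, TGACGTCA (cAMP response element), CCGGAAG (ETS), GCATGCGC (NRF1), CACGTG (E-box), TGANTCA (AP-1), TATAAA and AAGATGG (YY1), on both strands and with overlaps allowed. A GC box was found once in the Ep300 window and 2 times each in those of Crebbp, with an overlap, and of Brd3, and 35.7% of all windows held 1. The printed Brd2 window, the outermost, held an ETS match, as 8.86% of all windows did. It also held 2 overlapping NRF1 matches, 17 and 15 bases before the start. At least 1 NRF1 match was in 2.71% of all windows. The other Brd2 windows, not printed, held neither motif but 1 GC box each. That of the innermost start also held a YY1 match (6.34% of all windows). The Nop10 window held a CCAAT match (37.4% of all windows), and the inner Zmynd8 window an ETS match. None of the 9 was found in the outer and middle Zmynd8 windows. These matches describe letters only.

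Nutm1 itself carried no called H3K27ac in either list. Its span of 11344 bp (chr2:112247948-112259291) held 0 bp of peak in both, and the closest peak edge lay 2670 bp beyond its upper end in both. Over all genes with no annotated start in the table, 55.1% had no peak at either end in either list. That share counts peaks within 1000 bp of a gene end, not in the whole span, for which no share is given. Within 10 kb the BN1 list had 4 peaks with 4705 bp, and the control list had 4 peaks with 4844 bp. The 4 pairs overlapped one to one, their summits lay 115 to 290 bp apart, and 77.9% of the length covered by either list was covered by both.

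The peaks of this window lay on other genes, and the pairs described here are those nearest to Nutm1 on each side. The lower one, of 1160 bp in the BN1 list (chr2:112239212-112240371) and 944 bp in the control list (chr2:112239080-112240023), overlapped the start of Lpcat4, a lysophospholipid acyltransferase gene, and the predicted gene Gm52523. The upper one, of 732 bp in BN1 and 724 bp in control, overlapped Nop10, which encodes a small protein of the H/ACA ribonucleoproteins, and began at chr2:112261961 in both lists. By distance to gene spans, 0 of 4 peaks in the BN1 list and 0 of 4 in the control list were nearest to Nutm1. By distance from summit to annotated starts, the nearest gene was Lpcat4 or Nop10 in both lists.

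The fold enrichment at a summit is the authors' own value and was ranked within its list. The Lpcat4 peak had a fold enrichment of 12.5 in the BN1 list, at percentile 74.6, and of 8.11 in the control list, at percentile 60.7. The Nop10 peak stood at percentile 46.7 in the BN1 list and at 27.3 in the control list. Percentiles come from lists of different length, and their difference was not tested.

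The acetyltransferase genes each had a strong peak at the start in both lists. Ep300 had 1 peak in its window in each list, of 2546 bp in BN1 (chr15:81584592-81587137) and 2748 bp in control (chr15:81584638-81587385), and 2500 bp were common to both. That peak had a fold enrichment of 91.2 in the BN1 list, percentile 99.9, where it ranked 17 of 19148 by q-value. In the control list it had a fold enrichment of 40.2, percentile 99.3, and ranked 339 of 28343. The summit lay 672 bp before the start in BN1 and 397 bp before it in control. The rest of the 65869 bp gene had no peak in either list.

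Crebbp, the paralogue of Ep300, had 2 peaks in each list. The peak at its start covered 2619 bp in BN1 (chr16:4212663-4215281) and 2072 bp in control (chr16:4212771-4214842), and the control peak lay wholly within the BN1 peak. It stood at percentile 96.2 of the BN1 list and 96.1 of the control list. The other peak, of 1369 bp in BN1 and 1068 bp in control, lay on the start of Trap1, a mitochondrial chaperone gene, 2745 bp from the end of Crebbp in BN1 and 2864 bp in control. No peak lay elsewhere in the 132624 bp gene. Crebbp was the single gene of the 8 with more peak length in bp in the BN1 list, at 3988 bp against 3140 bp in control.

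Brd2 and Brd3 encode BET readers expressed in many tissues. Brd2 lies in the class II region of chromosome 17, where H2-DMa, a peptide-loading gene, overlaps its start. A single peak of 5313 bp in BN1 (chr17:34117792-34123104) and of 6729 bp in control (chr17:34118022-34124750) covered all 3 annotated Brd2 starts and a start of H2-DMa. The summits lay 943 bp apart, and because the 2 genes share the region, the peak cannot be given to either alone. The control list had a further peak of 429 bp inside Brd2, at percentile 20.4, with no counterpart in BN1. A distal peak nearest to H2-Oa reached the window in both lists (1671 bp in BN1, 791 bp in control), with summits 1 bp apart.

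Brd3 showed the same start in both lists and different regions behind it. The start peak was 1 block of 1939 bp in BN1 (chr2:27474951-27476889) and 2 blocks of 947 and 502 bp in control. Before this start, still within the annotated span, BN1 alone had peaks of 1273 and 231 bp, with summits 11861 and 12327 bp from the start. Farther out lay a region of 460 bp in BN1 (chr2:27503999-27504458, percentile 10.8) and of 2644 bp in control (chr2:27503282-27505925, percentile 72.2), with summits 120 bp apart. Control alone had 2 weak peaks of 464 and 456 bp near Brd3os, a gene beside Brd3, and the summit of the second lay 123 bp from the Brd3os start. The start of Wdr5, a WD-repeat subunit gene of histone methyltransferase complexes, had a peak in both lists (2881 bp in BN1, 2328 bp in control). Both lists together covered 10257 bp here, of which 37.7% was common.

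Nsd3, which encodes an H3K36 methyltransferase whose short form bridges BET proteins, had its strongest own peak at the lower end of the gene in both lists. It covered 3279 bp in BN1 (chr8:25600432-25603710) and 2813 bp in control (chr8:25600786-25603598), with summits 41 bp apart. It stood at percentile 99.3 in the BN1 list and 97.9 in the control list. A peak of similar rank lay on the end of the neighbour Letm2, at 2071 bp in BN1 and 1313 bp in control, and it ranked 10 of 19148 by q-value in the BN1 list and 469 of 28343 in the control list. A shared peak on Plpp5 covered 749 bp in BN1 and 1160 bp in control. The unshared peaks of Nsd3 lay apart from each other. BN1 alone had peaks of 232 and 222 bp inside the gene and of 327 bp in Letm2, all at or below percentile 32.8, while control alone had peaks of 1896 and 382 bp inside the gene, at percentiles 53.3 and 38.3.

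Zmynd8, which encodes a chromatin reader with a bromodomain, had the most peaks of the 8 genes in both lists, with 10 in BN1 and 8 in control. They covered 12583 bp in BN1 and 17140 bp in control, which is 9.33% of the window in BN1 and 12.7% in control, and all of them were nearest to Zmynd8. The outer start lay under a peak in both lists, of 3165 bp in BN1 (chr2:165883113-165886277) and 4957 bp in control (chr2:165881815-165886771), with summits 4 bp apart. The middle start, printed above, lay under that peak in control, whereas in BN1 the closest peak was a weak one of 341 bp, 161 bp away. The 2 other starts between the middle and the inner one had no peak in either list, with the closest 1645 to 2909 bp away.

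The inner start of Zmynd8 was the place of the widest peak at any of these genes. Control had 1 peak of 8639 bp there (chr2:165851254-165859892), with a fold enrichment of 24.7 at percentile 95.5. BN1 had 3 separate peaks of 2450, 616 and 1491 bp within the same stretch, at percentiles 59.9, 22.1 and 54.0, and the third covered the start. These 3 together shared 4540 bp with the control peak. Farther along the gene from the inner start BN1 alone had peaks of 2333 bp (chr2:165792017-165794349) and 237 bp, and it also had 2 unshared peaks of 1081 and 273 bp before the outer start. Control alone had 4 peaks of 324 to 755 bp between the inner and middle starts, and 1 of 221 bp in the upper flank. Over the gene, 40.5% of the length covered by either list was common.

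Zfp532, a zinc finger gene whose human counterpart encodes a ZMYND8 partner and is fused to NUTM1 in some NUT carcinomas, had no peak in the BN1 list and 6 peaks with 8603 bp in the control list. The closest peak of the BN1 list lay 77570 bp from the gene. In control the strongest peak covered 2995 bp at the lower end (chr18:65579514-65582508), with a fold enrichment of 30.7 at percentile 97.9. Peaks of 327, 253 and 459 bp lay inside the gene, all at or below percentile 29.0. The remaining 3656 and 913 bp peaks were nearest to Oacyl, so 4034 bp of peak was nearest to Zfp532 itself. Over all 13606 genes with a peak in either list, 13.1% had a control peak but no BN1 peak, and 6.13% the reverse, which was seen at 0 of the 8 genes. Of genes with no annotated start, 6.89% had a peak at a gene end in control only.

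**Figure D1:**
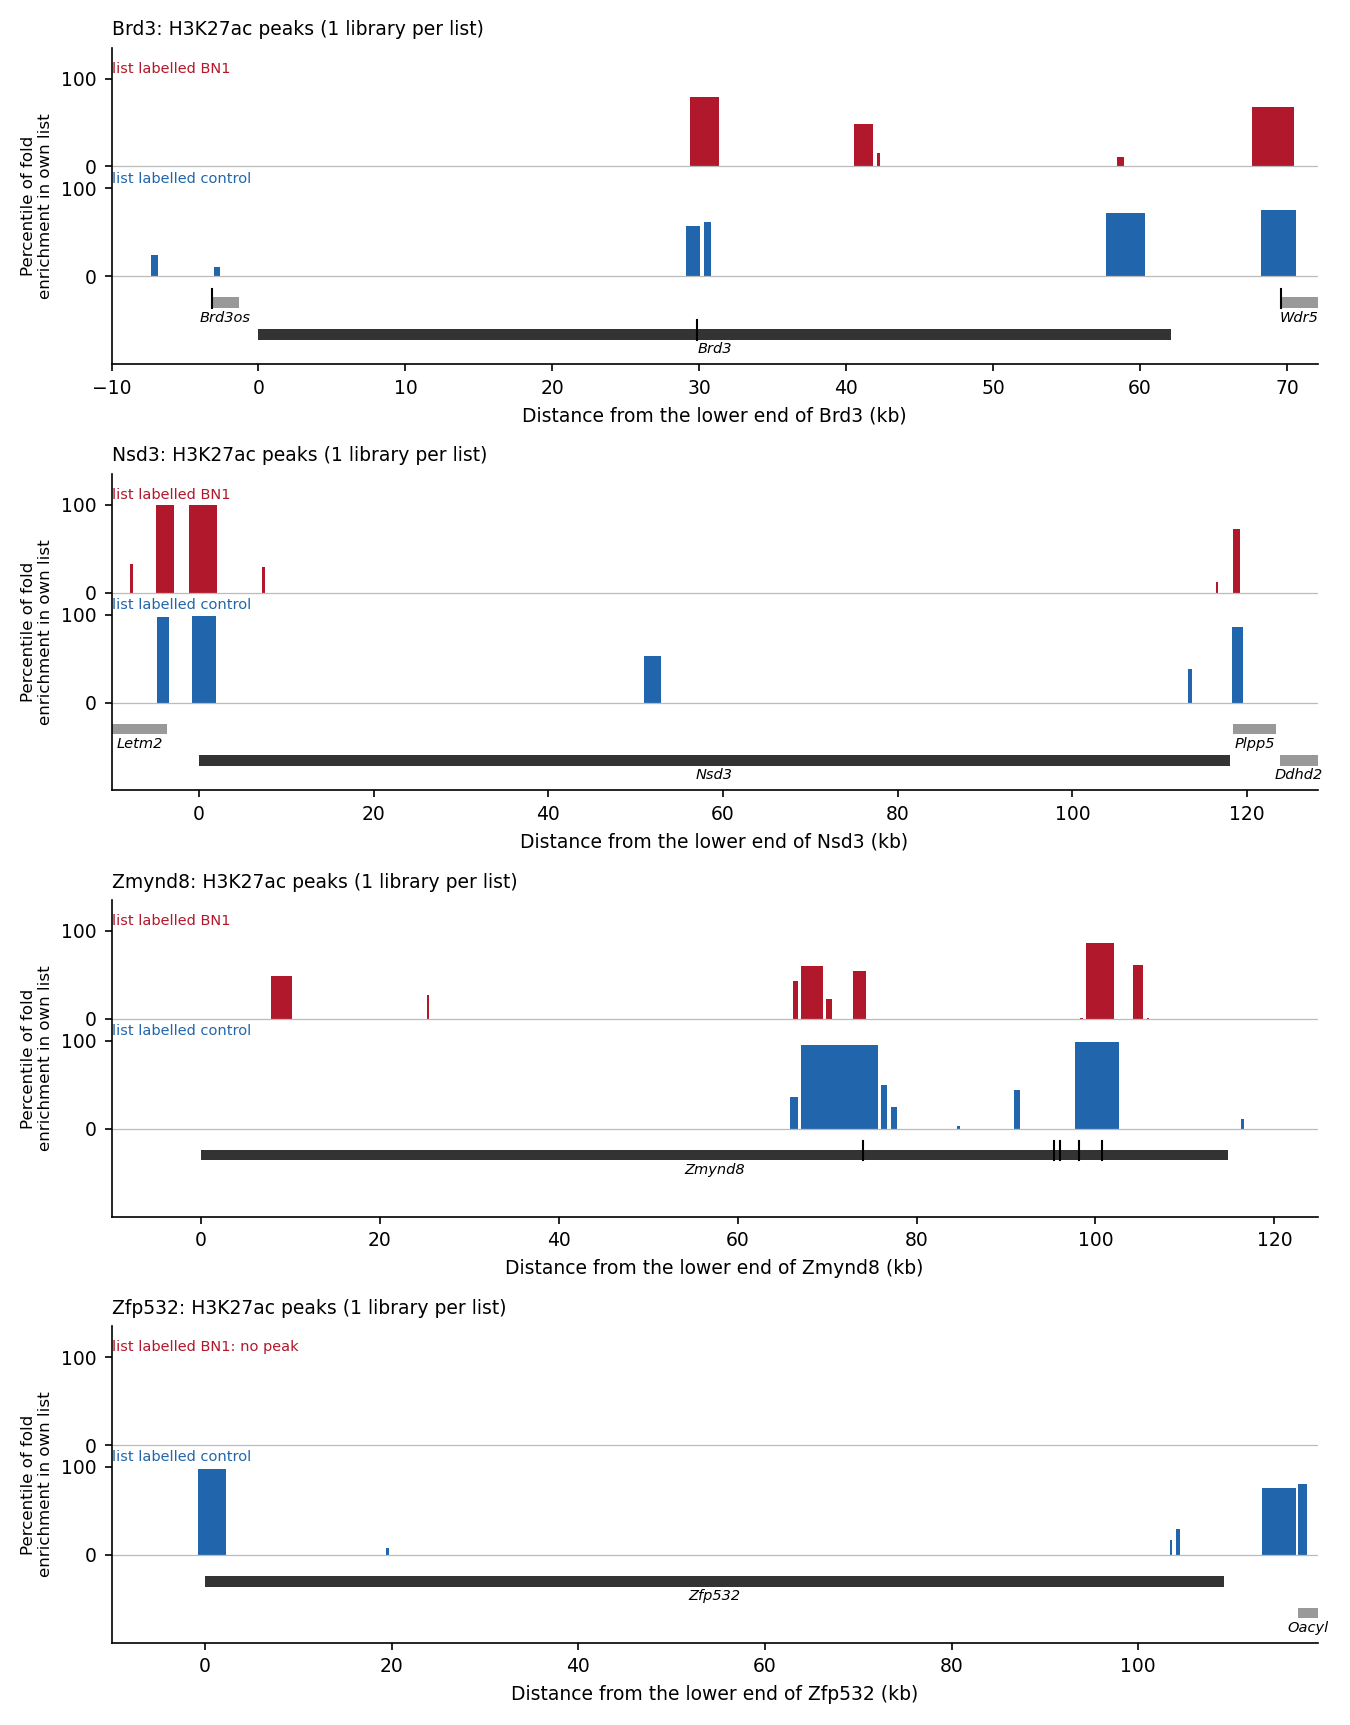
Peaks at Brd3, Nsd3, Zmynd8 and Zfp532 by distance from the lower end of each gene in kb, drawn with BN1 above control and bar height as the percentile of fold enrichment within the list; blocks are gene spans and ticks annotated starts. Start or lower-end peaks coincide at Brd3, Nsd3 and Zmynd8, the control peak at the inner Zmynd8 start spans 8639 bp, and Zfp532 has peaks in control alone.

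By starts and gene ends, Zfp532 was the single gene of the 8 that differed between the lists. Of the 5 genes with an annotated start, 5 had a peak within 1000 bp of it in both lists, against 40.6% of the 17492 genes with an annotated start, while 2.92% had one in BN1 only and 6.21% in control only. Of the 3 genes without one, Nsd3 had a peak at a gene end in both lists, as 34.2% of 4395 such genes did, Zfp532 in control only, and Nutm1 in neither. Peaks across a gene edge were shared in 4 of 4 cases in BN1 and 4 of 5 in control, the exception being Zfp532. Peaks in the flanks, most of them nearest to a neighbour, were shared in 9 of 10 cases in BN1 and 9 of 14 in control. Of peaks lying wholly inside a gene, 8 of 16 were shared in BN1 and 6 of 16 in control. The same split was not computed over all peaks, so these counts describe the 8 windows only.

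Across the 8 windows, 21 of 30 BN1 peaks overlapped a control peak (70.0%, exact 95% interval 50.6 to 85.3), and 19 of 35 control peaks overlapped a BN1 peak (54.3%, 36.6 to 71.2). Over all peaks the shares were 62.6% in BN1 and 41.2% in control, and each lies inside the interval for its list. That is not a test, and no difference from the rest was shown. The intervals cover counting error only and treat peaks as independent. Peaks of 1 gene may not be, and Zmynd8 alone gave 10 of the BN1 peaks and 8 of the control peaks. Shared peaks had a median width of 1671 bp in BN1 and 1313 bp in control. Unshared peaks were narrower, with a median of 273 bp in BN1 and 461.5 bp in control. The same held over all peaks. There the shared and unshared medians were 982 and 454 bp in BN1, and 1284 and 502 bp in control. The summits of the 22 overlapping pairs lay a median of 166 bp apart, and 12 pairs lay within 200 bp.

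**Figure D2:**
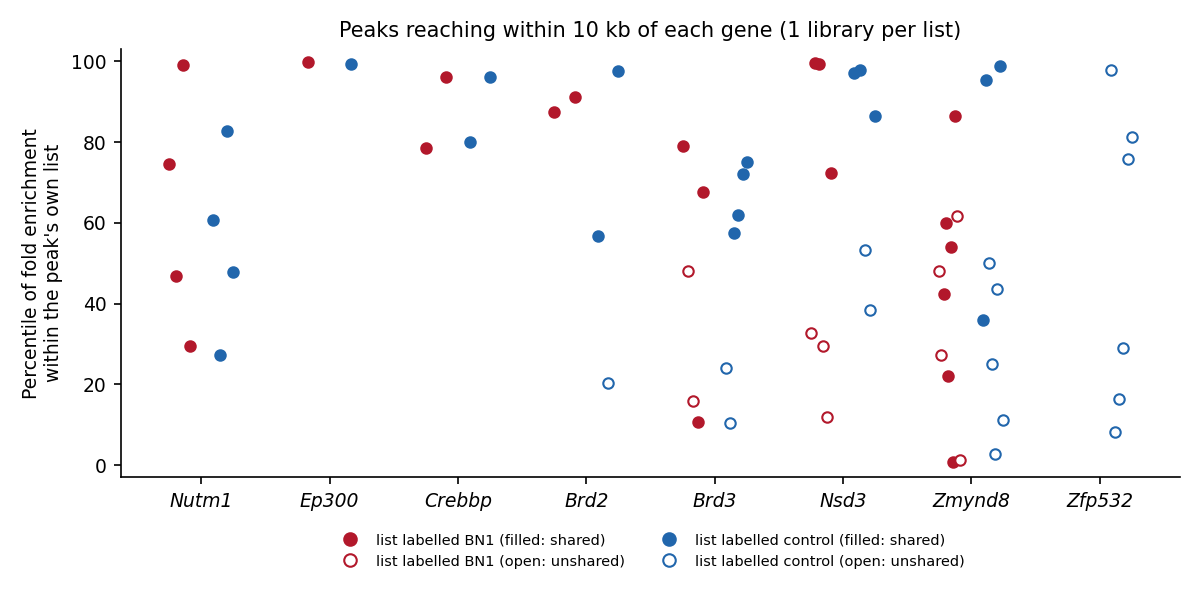
Percentile of fold enrichment within its own list (y axis) for each peak in the window of each gene, BN1 left of control, with filled points for peaks shared between the lists and open points for unshared ones. The Ep300 peak stands at 99.9 in BN1 and 99.3 in control, all Nutm1 window peaks are filled, and all 6 Zfp532 peaks are open.

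Because the lists cover different totals, lengths were also set per Mb of covered length. Nutm1 then had 246 bp per Mb in BN1 and 156 in control, 1.58-fold, but its unscaled lengths were 4705 bp in BN1 and 4844 bp in control. Ep300 had 133 bp per Mb in BN1 and 88.6 in control. Brd2 had 345 in BN1 and 246 in control (1.41-fold), and Brd3 had 355 in BN1 and 237 in control. Each of these lay within 2-fold, as did the next pair. Nsd3 had 360 in BN1 and 244 in control (1.48-fold), and Zmynd8 had 658 in BN1 and 552 in control (1.19-fold). In bp these 6 genes ran the other way, with BN1 to control ratios of 0.97 for Nutm1, 0.93 for Ep300, 0.87 for Brd2, 0.92 for Brd3, 0.91 for Nsd3 and 0.73 for Zmynd8. Their direction therefore depends on the scale, and whether either list changed was not tested.

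A difference of at least 2-fold per Mb was found at 2 genes. Crebbp was higher in BN1, at 209 against 101 bp per Mb, 2.06-fold, and 19.0% of the 13606 genes with a peak were 2-fold higher in BN1 by the same rule. Its ratio in bp was 1.27, and with lists of equal length or without flanks it was also under 2-fold. Zfp532 was higher in control, at 0 against 277 bp per Mb, where 22.8% of genes were 2-fold higher. It was also past 2-fold in bp, as it must be with no BN1 peak. In that direction 33.9% of genes were past 2-fold in bp, and 10.5% in the other. Per Mb, 7 of 8 genes were longer in BN1, against 58.2% of all genes, and in bp 1 of 8, against 29.3%. The median difference of the 8 genes, BN1 minus control, was 102.6 bp per Mb, and that over all genes with a peak was 10.2 bp per Mb. Such differences are not relative to the peak length at each gene, which was greater for the 8 genes. In bp both medians turned, to -620.5 bp for the 8 genes and -457 bp over all genes with a peak, and without flanks the median of the 8 genes was 29.5 bp per Mb. The windows of the 8 genes also had more peak length than most, with medians of 296 bp per Mb in BN1 and 240 in control. Over all genes with a peak the medians were 71.0 in BN1 and 62.0 in control. These lengths were not adjusted for gene span. In the 8 windows, 10 of 30 BN1 peaks and 13 of 35 control peaks were nearest to a neighbour.

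**Figure D3:**
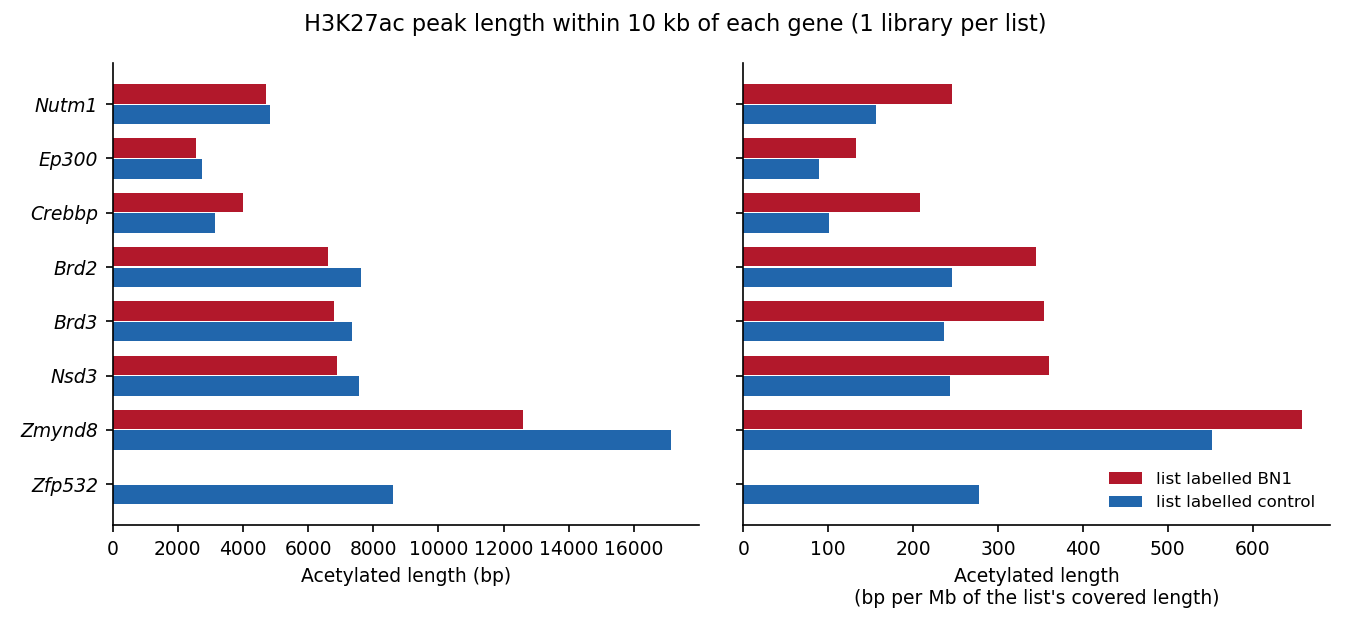
Peak length within 10 kb of each gene in bp (left) and in bp per Mb of the list's covered length (right), 1 bar per library with BN1 above control. In bp the control bar is longer at all genes except Crebbp, and per Mb the BN1 bar is longer at all genes except Zfp532.

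**Figure D4:**
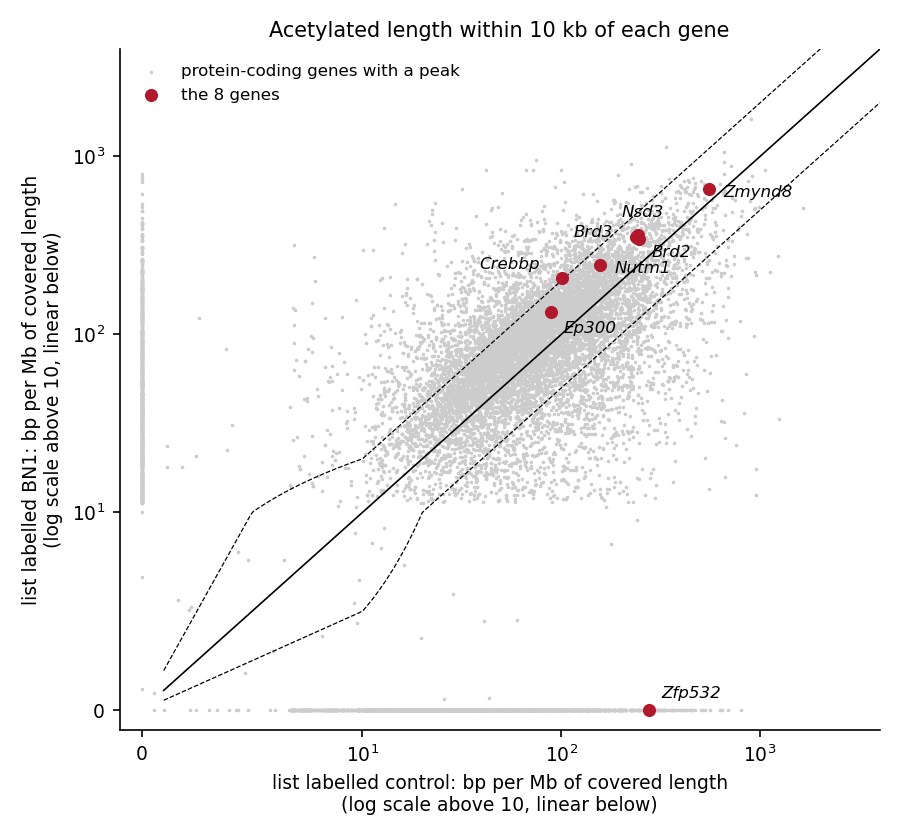
Peak length per Mb within 10 kb of each protein-coding gene with a peak, BN1 list (y axis) against control list (x axis), both log scaled above 10 and linear below; the solid line marks equal values and dashed lines 2-fold. Crebbp (209 against 101 bp per Mb) lies just past the upper dashed line, and Zfp532 (0 against 277) lies at 0 on the y axis.

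Other genes of acetylation and its readout were counted from 5 lists of 73 genes in all, chosen with results of these data known. Of the 70 with a peak in either list, 11 (15.7%) were at least 2-fold higher per Mb in BN1 and 6 (8.57%) in control, both below the shares of all genes, and 53 lay within 2-fold. With no scaling, 6 were 2-fold higher in BN1 and 12 in control, beside 10.5% and 33.9% of all genes with a peak. Hdac11, Mllt3 and Yap1 had no peak in either list.

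Calls below are per Mb, and the lengths printed beside them are in bp. For each count, the shares of all genes with a peak were 19.0% higher in BN1 and 22.8% higher in control. Among 13 acetyltransferases and coactivators, 2 were higher in BN1 and 2 in control. Kat5, the TIP60 acetyltransferase gene, had 3759 bp in BN1 and 2734 bp in control. Taf1, a TFIID subunit gene, had 1009 bp in BN1 and 577 bp in control. In bp both genes lay within 2-fold. Kat2a (GCN5) had 1294 bp in BN1 and 6592 bp in control, and Kat6b had 1923 bp in BN1 and 6941 bp in control. By bp alone, Ncoa3 was past 2-fold, higher in control (2005 bp in BN1, 4801 bp in control). Of 18 other bromodomain readers, 4 (22.2%) were higher in BN1, near the share of all genes, and 0 in control. Baz1a (6434 against 2700 bp) and Cecr2 (3023 bp against none), both remodelling subunit genes, led them. In bp Brpf3 and Trim33, also among the 4, lay within 2-fold. Brpf1 was past 2-fold in bp, higher in control (3949 bp in BN1, 10587 bp in control).

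Elongation factors, which act after BET binding, had 1 of 11 genes with a peak higher in each direction. Cdk9, the kinase of P-TEFb, had 10387 bp in BN1 and 6091 bp in control, which is within 2-fold in bp. Ell had 3487 bp in 3 peaks in BN1 and 21477 bp in 16 peaks in control. Mllt1 was past 2-fold by bp alone, higher in control (1146 bp in BN1, 3314 bp in control). Among 12 deacetylases with a peak, Hdac8 was higher in BN1 (1141 against 345 bp), while Hdac6 (567 bp) and Hdac9 (448 bp) had a peak in control only. By bp alone, Hdac7 (4079 bp in BN1, 10526 bp in control) and Sirt6 (1335 bp in BN1, 2824 bp in control) were past 2-fold, higher in control. Of 16 relatives and fusion partners with a peak, 3 were higher in BN1, among them Mxd1 (6388 against 2016 bp) and Mxd4 (3503 against 1749 bp), which encode MAX-binding repressors. Zfp618, whose human counterpart is a NUTM1 partner in leukaemia, had no peak in BN1 and 10318 bp in 11 peaks in control. Cux1 was past 2-fold by bp alone, higher in control (9895 bp in BN1, 30747 bp in control).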

How the data were processed

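H3K27ac was profiled by fractionation-assisted native ChIP and sequencing in the 2 ChIP libraries analysed. The deposited files are peak lists with no header. Groups follow the sample titles. The submitters' processing notes name Bowtie2 2.5.4, Picard 3.2.0, deepTools 3.5.1, MACS3 3.0.1 and the build mm10 (GRCm38), with no role or order. The roles of the inputs, any pooling and the threshold for calling are not stated there. For every peak the authors deposited a summit position, an enrichment as a linear ratio (fold), and 2 values on the −log10 scale, for the p-value and the q-value. The deposited score equals 10 times the −log10 q to within 1 in 100% of peaks. The minimum −log10 q was 1.30 in BN1 and 1.32 in control, so weaker signal is not seen. Read depth is unknown.

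Gene spans were read from RefSeq (GRCm38.p6), and starts from the RefSeq promoter table, which matched 17492 of 21887 protein-coding genes; for the rest either gene end was used. Peaks did not overlap within a list. Peak length is the bp of peaks inside the gene span with 10 kb flanks, and a peak was shared where it overlapped the other list by at least 1 bp. Rules for named genes took all 8 genes, the genes nearest to their peaks, and up to 2 genes per direction and list past 2-fold. Listed genes whose call differed between bp and bp per Mb were named as well. The genes and lists were chosen with earlier results of these data known. Some genes are not reported here. Shares have exact Clopper-Pearson 95% intervals. Lists were compared with thresholds, scalings and windows given in the closing section. Interval code was tested on simulated peaks. Python 3.11.15, numpy 2.4.6, pandas 2.3.3, scipy 1.17.1 and matplotlib 3.10.9 were used.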

Additional observations from a re-analysis of the deposited data

How the results depend on the processing

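With 1 library per group and unknown depth, a missing peak shows only that none was called. No paired analysis was possible because each group holds 1 library. Alternatives were −log10 q minimums of 5 and 10, lists of equal length, the top 10000 peaks of each list, no or 50 kb flanks, lengths in bp, an overlap of 50% of the peak, and start windows of 500 and 2500 bp. The cause of each move below was not tested, except that fewer peaks or a narrower or wider window change counts by construction.

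Zfp532 stayed past 2-fold, higher in control, under all 7 settings that give its length. The closest BN1 peak lay 77570 bp away, so no setting could give this gene length in BN1. The call was thus nearly fixed in advance and shows no robustness. Crebbp stayed past 2-fold under 3 of 7. The number of the 8 genes at least 2-fold higher in BN1 fell to 0 with lists of equal length, with the top 10000 peaks, without flanks and in bp. The median difference of the 8 genes, BN1 minus control, was 29.5 bp per Mb without flanks and -620.5 bp unscaled, where 7 of the 8 genes were longer in control. Peaks in the 8 windows numbered 18 in BN1 and 22 in control when a −log10 q of 10 was required. Using the top 10000 peaks left 18 in BN1 and 17 in control, where 76.5% of the control peaks were shared. Control had 21 peaks without flanks and 53 with 50 kb flanks. At Nutm1 both lists had 0 peaks without flanks, and control had 7 with 50 kb flanks. Without flanks, 19 of the 73 other genes were 2-fold higher in BN1. No share of all genes is given for that setting, so the count is not a result about these genes. In bp, 6 were higher in BN1 and 12 in control. Without flanks, Nsd3 also turned, at -3.72 bp per Mb. Of 79 summary values under an alternative, 60 stayed within 1.5 times of the first value or, for shares, its interval.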
